A study of Mus musculus with 2 samples.

Results

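The CC chemokines described here are 10 genes for small secreted proteins, Ccl2, Ccl3, Ccl4, Ccl5, Ccl6, Ccl7, Ccl9, Ccl12, Ccl17 and Ccl22. All probes whose RefSeq accession belonged to one of them were taken, which gave 11 probes, 2 for Ccl4 and 1 for each other gene, among the 22911 genes that could be named on the array. They were measured in LKS+ cells, lineage-negative bone marrow (BM) cells of the mouse that carry c-kit and Sca-1, among which are the blood-forming stem and multipotent progenitor cells. The cells came from wild-type (WT) mice, bought as young adult males, and had been propagated in serum-free medium with stem cell factor at 100 ng/ml and IL-3 and IL-6 at 10 ng/ml each. The strain behind the array cultures is not given in the sources used here. One culture then received extracellular vesicles (EVs) from the spleen (SP) of mice with chronic myelogenous leukemia (CML EVs) and the other EVs from the SP of normal mice (control EVs), both at 150 μg/ml for 24 h. In the CML model a retrovirus carries the BCR-ABL oncogene and GFP into LKS+ cells, which are transplanted into irradiated mice. The methods describe the CML mice used for the arrays as irradiated before their SP was taken, whereas the sample labels name CML mouse SP only, and no irradiation of the normal donors is mentioned. Leukemia and irradiation of the EV donors therefore cannot be told apart. Each condition had 1 array, both on the same slide, so every difference below lacks a replicate check and no p-value was computed.

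CC chemokines carry a pair of adjacent cysteines near the N-terminus and signal through G protein-coupled CC receptors, which guide leukocytes along a gradient and hold them in place in tissue. Ccl2, Ccl7 and Ccl12 form the monocyte chemoattractant protein group and act through Ccr2, through which monocytes leave BM. Ccl3, Ccl4 and Ccl5 are inflammatory chemokines of macrophages and lymphocytes, and Ccl3 is also known as an inhibitor of the proliferation of hematopoietic progenitors. Ccl6 and Ccl9 are rodent chemokines of myeloid cells, and Ccl17 and Ccl22 are made chiefly by dendritic cells and macrophages and bind Ccr4.

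In the mouse genome most of these genes lie side by side. On chromosome 11 Ccl2, Ccl7, Ccl11, Ccl12, Ccl8 and Ccl1 follow each other without another protein-coding gene between them, and Ccl5, Ccl9, Ccl6, Ccl3 and Ccl4 form a second such row. Ccl22 and Ccl17 lie on chromosome 8 with Cx3cl1 between them. RefSeq promoter sequences of the build GRCm38.p6, from 250 bases before to 50 bases after the annotated start, matched 6 of the 10 genes. No such sequence was found for Ccl2, Ccl4, Ccl5 and Ccl7. The array files name another build, so that these coordinates locate the promoters only and not the probes. Ccl6 and Ccl9 are shown first because they are direct neighbors with related starts whose log2 ratios between the cultures read -0.0062 for Ccl6 and 0.15 for Ccl9. The scanner's error of each ratio was 0.20 and each culture had 1 array, so a difference between the 2 genes is not established. The Ccl6 promoter lies at chr11:83593038-83593337 and the Ccl9 promoter at chr11:83578587-83578886, both on the minus strand of the build and written 5′ to 3′ along the gene. Capitals mark the stretch that aligned between them.
Ccl6: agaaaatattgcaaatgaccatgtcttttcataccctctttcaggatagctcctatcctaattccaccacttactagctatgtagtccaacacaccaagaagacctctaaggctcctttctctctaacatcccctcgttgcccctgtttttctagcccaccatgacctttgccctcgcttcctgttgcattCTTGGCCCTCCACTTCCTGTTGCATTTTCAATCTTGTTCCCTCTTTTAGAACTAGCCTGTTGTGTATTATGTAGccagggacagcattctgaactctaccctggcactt
Ccl9: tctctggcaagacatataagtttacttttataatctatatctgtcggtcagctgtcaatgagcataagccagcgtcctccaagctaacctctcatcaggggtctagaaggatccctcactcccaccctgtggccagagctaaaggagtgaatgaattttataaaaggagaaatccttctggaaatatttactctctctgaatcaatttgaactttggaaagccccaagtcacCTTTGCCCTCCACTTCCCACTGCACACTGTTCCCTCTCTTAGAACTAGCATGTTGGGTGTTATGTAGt
The alignment held 59 identical bases over 74 columns, or 79.7%. It covered positions -59 to 15 of Ccl6 and -18 to 49 of Ccl9, counted from the annotated start, so that the related stretch lies at a different distance from the start of either gene. It had the highest score of any pair among the 6 promoters.

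The promoters of Ccl3, of Ccl12, which had the highest ratio, and of Ccl17, which had the lowest, were searched on both strands for 5 motifs. The Ccl3 promoter is at chr11:83649329-83649628 on the minus strand, that of Ccl12 at chr11:82101595-82101894 on the plus strand and that of Ccl17 at chr8:94810203-94810502 on the plus strand. Capitals mark a TATA box (TATAAA) or a PU.1-like ETS core (GAGGAA), on either strand.
Ccl3: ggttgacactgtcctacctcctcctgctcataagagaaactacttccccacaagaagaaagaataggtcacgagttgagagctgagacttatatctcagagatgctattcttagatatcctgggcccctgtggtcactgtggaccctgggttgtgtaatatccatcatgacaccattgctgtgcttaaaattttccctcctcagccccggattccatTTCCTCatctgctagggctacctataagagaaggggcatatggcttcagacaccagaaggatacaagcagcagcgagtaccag
Ccl12: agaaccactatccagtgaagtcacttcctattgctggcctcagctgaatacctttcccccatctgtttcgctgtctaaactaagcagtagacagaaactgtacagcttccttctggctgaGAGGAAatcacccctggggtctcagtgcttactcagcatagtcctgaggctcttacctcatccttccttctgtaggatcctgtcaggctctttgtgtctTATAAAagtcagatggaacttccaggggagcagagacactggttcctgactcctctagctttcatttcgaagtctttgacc
Ccl17: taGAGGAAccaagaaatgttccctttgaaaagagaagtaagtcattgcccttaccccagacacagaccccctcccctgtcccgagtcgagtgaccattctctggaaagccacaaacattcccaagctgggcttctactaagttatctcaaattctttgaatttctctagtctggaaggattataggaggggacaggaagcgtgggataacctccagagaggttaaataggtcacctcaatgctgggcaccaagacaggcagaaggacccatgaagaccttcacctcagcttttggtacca
The motif TATAAA was found in 2 of the 6 promoters, Ccl9 and Ccl12, and in 13.6% of all 32851 RefSeq promoters of the same length. In Ccl12 it began 31 bases before the start. GAGGAA was found in 3, Ccl3, Ccl12 and Ccl17, and in 28.3% of all promoters. The NF-kB consensus was matched in Ccl9 only, 35 bases before its start and outside the aligned stretch, and in 8.46% of all promoters. Paired C/EBP half-sites (TTGCNNAA) and the interferon response core were in none of the 6, and in 10.8% and 3.44% of all promoters. Ccl2, Ccl4, Ccl5 and Ccl7 had no promoter sequence and were not searched. Of the 3 TATAAA matches in Ccl9, those at -94 and -92 overlapped on opposite strands, and matches of different motifs did not overlap. A match describes letters and not a bound site.

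Of the 10 chemokine genes, 9 were well above background on both arrays by the scanner's own flag and 1, Ccl22, on neither. Among all 22911 named genes 58.5% carried the flag on both arrays and 3.48% on 1 array only, where no member fell. The lowest scaled signal that carried the flag was 13.6 with CML EVs and 12.9 with control EVs. Signals are the scanner's background-subtracted intensities, scaled so that the mean of each array without its upper and lower 2% of spots is 2500, and they do not rank one gene against another because probes differ in brightness. Fewer cells of a type and less RNA per cell cannot be told apart in such cultures.

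**Figure D1:**
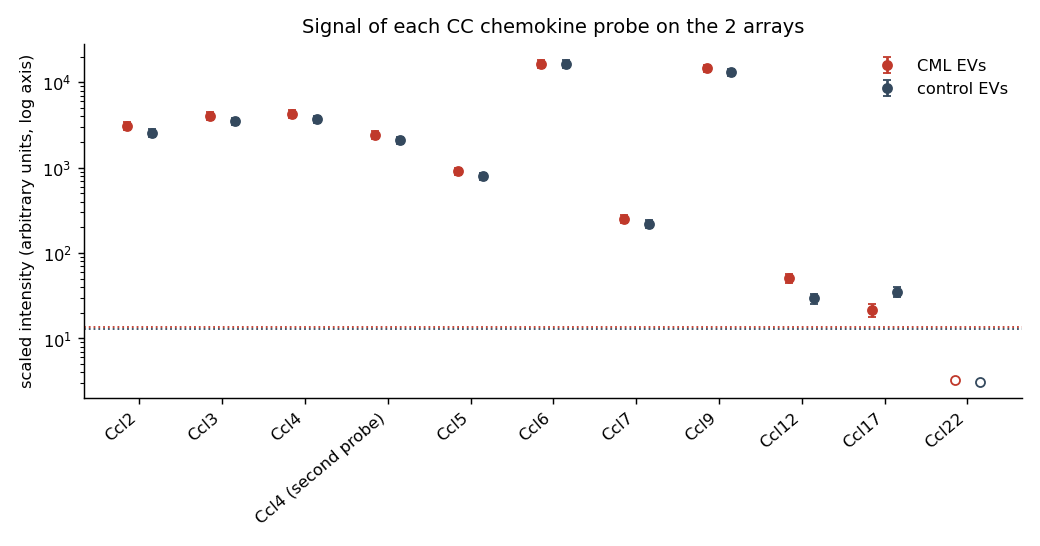
Scaled intensity on a log axis for each of the 11 probes, with CML EVs in red and control EVs in dark grey; bars are the scanner's error of the signal, dotted lines the lowest signal well above background on each array, and open points are not well above background. The 2 Ccl22 points lie below the dotted lines, and Ccl12 and Ccl17 lie just above them, Ccl12 at 51.0 with CML EVs and 29.6 with control EVs and Ccl17 at 21.5 with CML EVs and 35.4 with control EVs.

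The difference between the cultures was small and pointed the same way for most members. Of the 9 expressed members 7 had a log2 ratio above 0, as did 52% of all genes. With CML EVs 7 were higher by at least 1.1-fold, 1 was lower by that much and Ccl6 lay within it, at a median log2 ratio of 0.20 over the 9. Among the 13412 genes that carried the flag on both arrays 17.3% were at least 1.1-fold higher and 17.2% at least 1.1-fold lower, and the median log2 ratio was 0.0065. The fold of 1.1 was chosen after the values were seen. The threshold from here on is a log2 ratio of 0.32 in either direction, a size chosen earlier but with previous results of these data known. By it 1 member was higher, Ccl12, against 5.01% of all genes, and 1 was lower, Ccl17, against 5.25%. Apart from these 2 dim probes no member passed it. At 1.5-fold Ccl12 and Ccl17 passed, against 1.52% of all genes higher and 1.18% lower, and at 2-fold no member passed, against 0.395% of all genes higher and 0.224% lower.

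Error was available in 2 forms, and neither covers cultures or EV preparations. Probes spotted repeatedly on the arrays gave the log2 ratio a median SD of 0.03 (266 probes) at a mean log2 signal of 12 or more, 0.06 (5 probes) from 10 to 12, 0.10 (7 probes) from 6 to 10 and 0.26 (5 probes) below 6. The error model of the scanner software was wider for bright spots, and carried through to the ratio it was 0.20 for every member with a mean log2 signal above 8. The ratios of the bright members were thus larger than the spread between spots for all except Ccl6, but none exceeded 1.34 times its scanner error, the value for Ccl2.

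**Figure D2:**
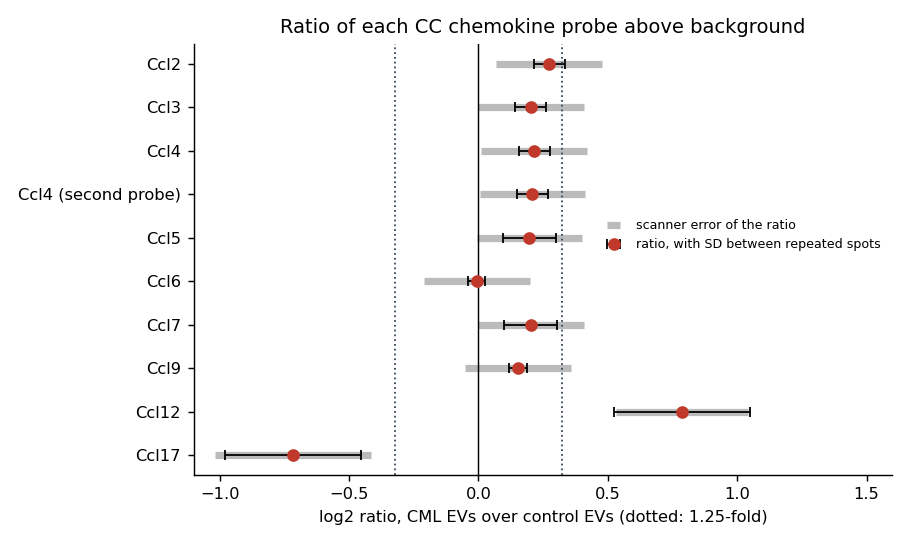
Log2 ratio (CML EVs over control EVs) for the 10 probes well above background (red points), with the median SD between repeated spots of similar signal as black bars and the scanner's error of the ratio as grey bars. From Ccl2 to Ccl9 all points except Ccl6 lie between 0.15 and 0.27, inside the dotted lines at a log2 ratio of 0.32 either way, with Ccl12 to the right of the lines at 0.79 and Ccl17 to the left at -0.72.

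In the Ccl2 group, Ccl2, the main monocyte attractant, had a scaled signal of 3091 with CML EVs against 2557 with control EVs. The log2 ratio was 0.27, or 1.21-fold, which is 1.34 times its scanner error and the highest ratio among the bright members. Of all genes in the comparison 6.61% had a higher ratio. Ccl7, the next gene on the chromosome and an attractant of monocytes and eosinophils, had 252 with CML EVs against 219 with control EVs, a log2 ratio of 0.20 or 1.15-fold. Both genes were thus higher with CML EVs, by less than the threshold. Ccl12, another ligand of Ccr2 in the mouse, gave 51.0 with CML EVs against 29.6 with control EVs. Its log2 ratio of 0.79, or 1.72-fold, was the highest of the 10 and stood at 3.07 times its scanner error, with a spot SD of 0.26. The reading rests on a faint spot, whose median brightness was 97.0 over a local background of 35 with CML EVs and 77.5 over 34 with control EVs. Genes with a mean log2 signal from 4 to 6 were at least 1.5-fold higher in 5.37% of 1994 cases and at least 1.5-fold lower in 5.82%, against 0.704% and 0.187% of the 9091 genes at 8 or more.

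Ccl3, Ccl4 and Ccl5 had nearly equal ratios. Ccl3, also called macrophage inflammatory protein 1 alpha, had 4038 with CML EVs against 3509 with control EVs, a log2 ratio of 0.20 or 1.15-fold. Ccl4, macrophage inflammatory protein 1 beta, had 4287 with CML EVs against 3693 with control EVs, a log2 ratio of 0.22. Its second probe gave 2426 with CML EVs against 2099.5 with control EVs and a log2 ratio of 0.21, so that the 2 probes of Ccl4 differed in ratio by less than the spread between spots. Ccl5, or RANTES, an attractant of T cells and eosinophils that is also induced by interferon, had 911 with CML EVs against 794 with control EVs, a log2 ratio of 0.20. All 3 genes were higher with CML EVs by 14.7% to 16.1%, with between 9.42% and 10.6% of all genes at a higher ratio.

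The myeloid chemokines Ccl6 and Ccl9 were bright in both cultures. Ccl9, also called macrophage inflammatory protein 1 gamma, had 14692 with CML EVs against 13216 with control EVs, a log2 ratio of 0.15 or 1.11-fold. That is 0.748 times its scanner error, and 15.1% of all genes had a higher ratio. Ccl6 had 16527 with CML EVs against 16599 with control EVs, and its log2 ratio of -0.0062 was smaller than the spot SD of 0.03. Ccl6 was thus the one bright member whose difference lay within the spread between spots, and its neighbors Ccl9 and Ccl3 on the chromosome both read higher with CML EVs. Its sign turned above 0 with 75th percentile, mean or median scaling.

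**Figure D3:**
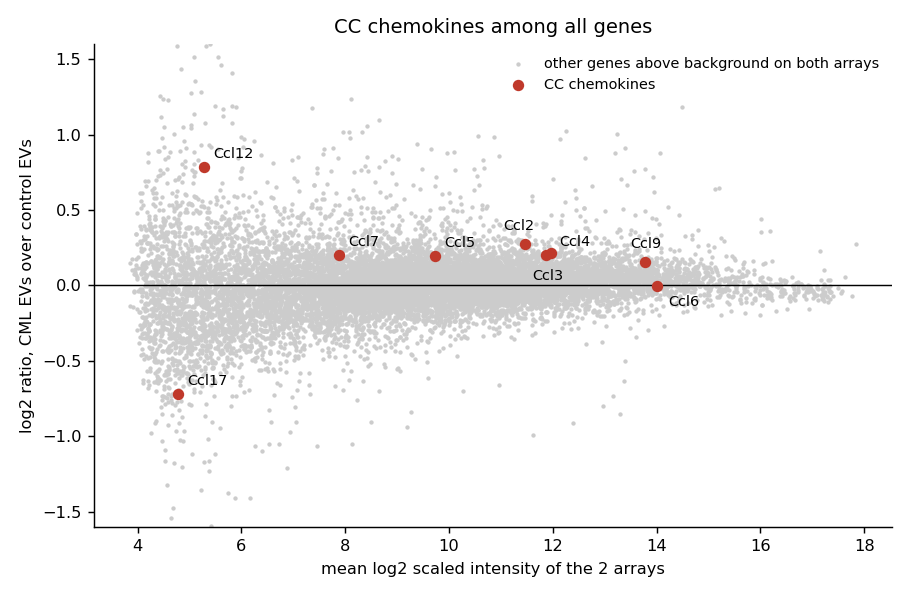
For 13412 genes, vertical axis the log2 ratio (CML EVs over control EVs) and horizontal axis the log2 scaled intensity averaged over both arrays: the other genes (grey) and the 9 expressed CC chemokines (red, named); 18 genes lie beyond the vertical axis. The chemokines brighter than Ccl7 sit at the upper side of the grey band except Ccl6, which lies on the line at 0, while Ccl12 and Ccl17 stand where the band is wide.

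The ligands of Ccr4 were faint or not well above background. Ccl17 had 21.5 with CML EVs against 35.4 with control EVs, a log2 ratio of -0.72 or 1.64-fold lower. Its spot read 62.0 over a background of 32 with CML EVs and 79.0 over 32 with control EVs, and the ratio was 2.38 times its scanner error. Of all genes 0.634% had a lower ratio, but most of these genes are brighter. Among the 1994 genes with a mean log2 signal from 4 to 6, as for Ccl17, 5.82% were at least 1.5-fold lower. Ccl22, which attracts Ccr4+ cells as Ccl17 does, had 3.26 with CML EVs and 3.12 with control EVs, not well above background on either array, so that no ratio was drawn from it. Ccl17 was the only member lower beyond the spread between spots, on a signal with only 5 repeated probes to gauge it.

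Among the 6 members with a mean log2 signal of 8 or more, 5 were at least 1.1-fold higher, and their ratios ran from -0.0062 to 0.27. Of the 9091 genes that bright 14.8% were at least 1.1-fold higher. Over all 9 expressed members, the number at least 1.1-fold higher was 7 or 6 under 10 other processing settings, of which 4 (the deposited values, both other choices of probe and outlier spots kept) left the members as they were apart from Ccl4, the 6 coming with quantile normalization and with normexp background correction before it. With median scaling, under which the median log2 ratio of all genes was 0.08, it was 7, beside 31.8% of all genes at least 1.1-fold higher and 10.6% at least 1.1-fold lower.

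Of 14 further CC ligand genes, 11 were on the array by name and 3 were well above background on both arrays, beside 58.5% of all named genes. Ccl24, an eosinophil attractant, had 462 with CML EVs against 360 with control EVs, a log2 ratio of 0.36 or 1.28-fold. It was the only one of the 3 past the threshold, beside 5.01% of all genes that were as much higher. Ccl25 had 210 with CML EVs and 213 with control EVs, and a fainter probe of it gave a log2 ratio of -0.30. Ccl27a had 53.7 with CML EVs and 55.2 with control EVs, and RNA of near-identical gene copies may bind its probes, which leaves its value uncertain. Ccl8, which lies beside Ccl12 and belongs to the monocyte chemoattractant group, was well above background with CML EVs only, at 33.0 with CML EVs against 3.40 with control EVs, which is at least 2.55-fold higher when set against the lowest flagged signal of the control EV array. Of all named genes 1.43% were above background with CML EVs only. Ccl21a, chosen for mention after its values were seen, was well above background with control EVs only, at 4.61 with CML EVs against 15.9 with control EVs. Set against the lowest flagged signal of the CML EV array, 13.6, it was at least 1.17-fold lower. That bound leaves out the error of so faint a spot. Of all 22911 named genes 470 were above background with control EVs only. The remaining 6 ligands were above background on neither array.

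All 15 CC receptor genes were on the array, and 8 carried the flag in both cultures, beside 58.5% of all named genes. Their median log2 ratio was 0.02. None passed the threshold, beside 5.01% of all genes higher and 5.25% lower, so that so short a list could be expected to hold few or none. Ccr2, the receptor of Ccl2, Ccl7 and Ccl12, had 840 with CML EVs against 981 with control EVs, a log2 ratio of -0.22, opposite in sign to its 3 ligands. Ccrl2, a receptor that binds chemerin without signaling, had 527 with CML EVs against 429 with control EVs, a log2 ratio of 0.30, and Ackr1, a scavenger of CC and CXC chemokines, had 527 with CML EVs and 532 with control EVs. Ccr1 and Ccr4 were chosen for mention after their values were seen. Ccr1, a receptor of Ccl3, Ccl5 and Ccl9, had 6.87 with CML EVs, not well above background, against 17.4 with control EVs. Set against the lowest flagged signal of the CML EV array it was at least 1.28-fold lower, a bound that leaves out the error of a faint spot. It is 1 of the 470 genes above background with control EVs only. Ccr4, the receptor of Ccl17 and Ccl22, was at 3.06 with CML EVs and 2.95 with control EVs, above background on neither array. Of 18 genes that act below CC receptors, all were expressed in both cultures, with a median log2 ratio of 0.04. At least 1.1-fold higher were 5 and lower 3, beside 17.3% and 17.2% of all genes. None passed the threshold, beside the same 5.01% and 5.25% of all genes. The GTPase gene Rac2, which drives leukocyte migration, had 13299 with CML EVs against 11283 with control EVs and a log2 ratio of 0.24. The receptor kinase gene Grk2 had a log2 ratio of 0.19, the G protein gene Gnai2 one of 0.04 and Rac1 one of 0.04. A second probe of Gnai2 gave -0.01.

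**Figure D4:**
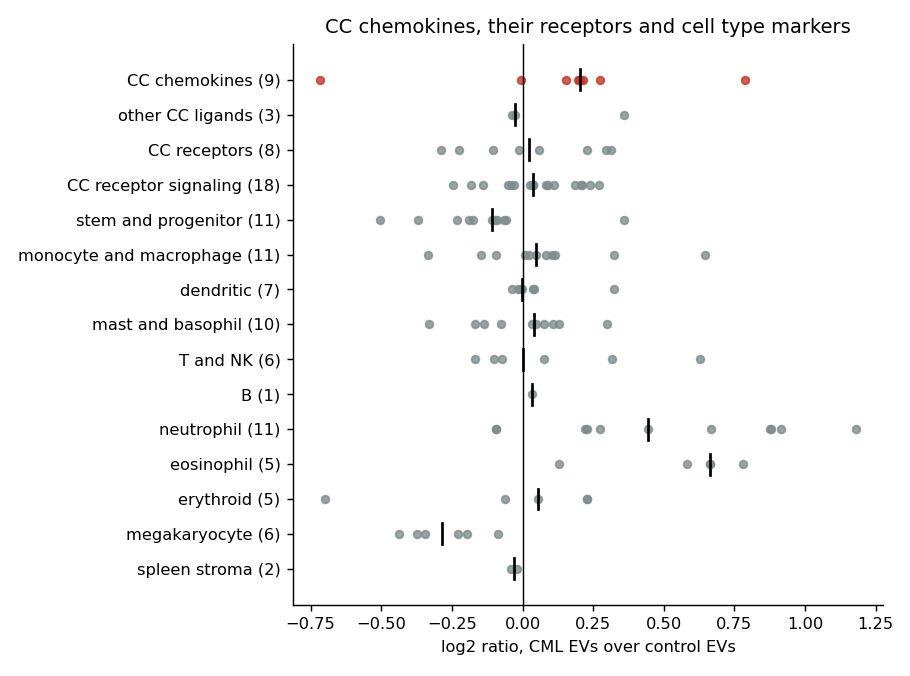
Log2 ratio (CML EVs over control EVs) in each list for genes flagged above background in both cultures (points; number in parentheses), with the median as a black line. The 9 CC chemokines, in red at the top, have a median of 0.20, the CC receptors 0.02 and the receptor signaling genes 0.04, while neutrophil and eosinophil markers lie farthest right at 0.44 and 0.66 and megakaryocyte markers farthest left at -0.29.

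The cultures expressed markers of LKS+ cells and of several mature lineages that are known to make CC chemokines. The counts below stand beside 58.5% of all named genes that were above background on both arrays, and a sum over a list weighs its brightest probes most. Of 12 stem and progenitor markers 11 were above background on both arrays, all except Mecom, with signals summed over the list of 44521 with CML EVs and 48559 with control EVs. Their log2 ratios were below 0 for 10 of the 11, beside 6444 of all 13412 genes flagged on both arrays. Among the 10 were Cd34 at -0.18, Myb at -0.07 and Meis1 at -0.19. Their flagged probes ranged from -0.35 to -0.18 for Cd34, -0.10 to 0.10 for Myb and -0.43 to -0.19 for Meis1. Ly6a, which encodes the sort marker Sca-1, was above 0 at 0.36 and past the threshold. Of 12 monocyte and macrophage markers 11 were above background on both, with 8 ratios above 0 and 3 below, summing to 79178 with CML EVs against 60927 with control EVs. Most of that gap was Ly6c2, at 47021 with CML EVs against 30081 with control EVs, whereas the receptor gene Csf1r had a log2 ratio of 0.05 and Cd68 one of 0.11. A second probe gave -0.06 for Csf1r and 0.18 for Cd68. All 10 mast cell and basophil markers were expressed, summing to 50089 with CML EVs and 47288 with control EVs. Their log2 ratios were above 0 for 6 and below 0 for 4, with Mcpt8, a basophil protease gene, at 0.08, Hdc at 0.05, Cpa3 at 0.11 and Il4, the only one past the threshold, at -0.33. Neutrophil markers summed to 602462 with CML EVs and 467094 with control EVs, of which Mpo gave 258638 and 213990 and S100a9 158211 and 134970. Of the 11, 9 were at least 1.1-fold higher with CML EVs, beside 17.3% of all genes. Eosinophil markers summed to 11928 with CML EVs and 7751 with control EVs over 6 genes, of which Il5ra was not above background. The other 5 had log2 ratios above 0, beside 6968 of 13412 genes. Past the threshold were 4 of them, beside 5.01% of all genes. Ratios of megakaryocyte markers were below 0 for 6 of 6, beside the same 6444 of 13412 genes. The part of these cells in the chemokine ratios was not tested. Of 10 dendritic cell markers 7 were above background, 3 with ratios above 0 and 4 below, summing to 29751 with CML EVs and 29938 with control EVs. Siglech, a marker of plasmacytoid dendritic cells, was at 25815 with CML EVs and 25926 with control EVs. H2-Ab1 was at 3305 with CML EVs and 3394 with control EVs and Itgax at 251 with CML EVs and 254 with control EVs, while Zbtb46, Cd209a and Xcr1 were above background on neither array. Of 11 T and NK cell markers 6 were above background on both arrays, with Cd3g, Cd8a, Gzma and Ncr1 on neither, and their sum of 8967 with CML EVs against 6649 with control EVs was mostly Nkg7. B cell markers were above background on both arrays for 1 of 7, Cd79b, with CML EVs only for Ebf1 and with control EVs only for Pax5, and spleen stroma markers on both arrays for 2 of 8, with Col1a1, Col3a1 and Cxcl13 on neither array.

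Over those 10 settings the lowest and highest log2 ratios were 0.22 and 0.34 for Ccl2, 0.17 and 0.27 for Ccl3, 0.15 and 0.29 for Ccl4, 0.16 and 0.27 for Ccl5, 0.20 and 0.27 for Ccl7 and 0.07 and 0.22 for Ccl9, all above 0. Ccl12 ranged between 0.30 and 0.86 and Ccl17 between -0.72 and -0.22, the values nearest 0 coming with normexp, whose added offset of 50 compresses the ratios of faint spots.

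**Figure D5:**
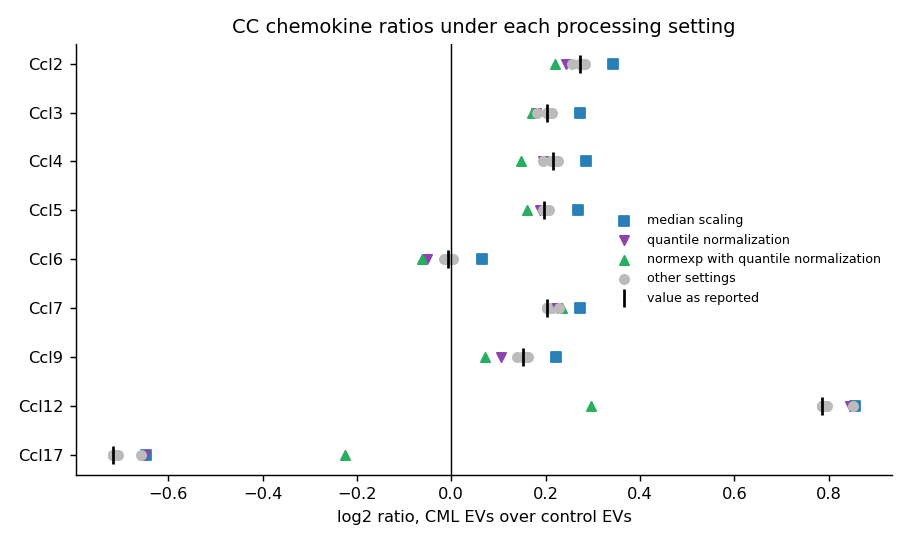
Log2 ratio (CML EVs over control EVs) of the 9 expressed CC chemokines as reported (black ticks) and under 10 other processing settings (symbols). Ccl12 and Ccl17 move toward 0 with normexp, to 0.30 and -0.22, while the other members move by less than 0.1.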

How the data were processed

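The members, gene lists and rules were chosen with earlier results of these data known. Total RNA of each culture was labeled with Cy3 and hybridized to 1 array; the authors extracted the deposited intensity of each spot with Agilent Feature Extraction 12.0.3.1. The deposited value table was found to equal the scanner intensity after multiplication by a constant for each array; it is on a linear scale, not centred, with medians of 21.2 for CML EVs and 22.2 for control EVs. The scanner intensity was scaled the same way (factors 0.947 and 0.942). Outlier spots (88 and 95 of 59305) were left out, no spot was saturated, and 53.3% and 54.4% were well above background. RefSeq accessions (GRCm38.p6 gene table) named 32994 of 56605 probes. For several probes of a gene, the one highest with CML EVs was used, as the methods describe. Named were all members, those of the ligand, receptor and signaling lists past a log2 ratio of 0.32 plus up to 4 with the highest CML EV signal, and the 3 brightest of each cell type list, not all of which are reported here; markers below background on an array, Ly6a and Il4 were named after their values were seen. Precision is limited by the number of arrays; no test was run. The ratio step was checked on simulated data with the same small spread between spots at every signal. The check therefore does not cover the wider spread of faint spots such as those of Ccl12 and Ccl17. Alternatives were 75th percentile, mean, median and quantile scaling, normexp (limma 3.58.1, R 4.3.3, offset 50, on median spot signals), the deposited values, probe choice, outlier spots, a loess fit (statsmodels 0.14.6, span 0.3), filters and fold thresholds.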

Additional observations from a re-analysis of the deposited data

How the results depend on the processing

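No paired analysis was possible because only 1 array stands for either condition. The median log2 ratio of the expressed members, 0.20, was 0.27 with median scaling, with the median of all genes at 0.08, and moved by less than the spread between spots otherwise. The number of members past a log2 ratio of 0.32, 1, was 2 with median scaling (Ccl2 with Ccl12), 0 with normexp, 7 at 1.1-fold, a threshold added after seeing the data, and 0 at 2-fold. The number as far below 0, 1, was 0 with normexp and 0 at 2-fold. Of 90 single ratios, 35 could not move, since the setting returned the reported value; of the other 55, 43 moved by less than the spread between spots and 12 by more. Of the members, only Ccl6 changed sign, with 75th percentile, mean or median scaling (0.06 with the last). The offset in normexp compresses faint spots by construction; otherwise the cause was not tested. With median scaling 71.1% of all genes lay above 0, against 52% as reported. Ccl12, Ccl17, Ccl8, Ccl21a and Ccr1 are limited by signal close to background.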
